A study of Danio rerio with 18 samples.

Results

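The genes described here are mybl1, myclb and myca, 3 transcription factor genes of the Myb and Myc families, measured in zebrafish that carry the young mutation in smarca4 and in wild type fish. They were chosen by gene symbol in the platform annotation, with earlier results of these data known, among them the young against wild type differences. Each gene has 1 probe set, so they make up 3 of the 15502 probe sets and 3 of the 8793 named genes on the array. For context, 10 other genes whose symbols begin with myb or myc, but not with mybp or myct, were read from 14 probe sets. Among them mybbp1a, mycbp and mycbp2 encode proteins that bind Myb or Myc and are not Myb or Myc factors. Because the choice was made with the genotype differences in view, those differences are given for the 3 genes as a description, without a test.

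RNA came from AB strain fish at 52 hours post fertilization (hpf), and each of 6 groups had 3 arrays from pools labelled as biological replicates. The groups were young retina, wild type retina, young retina with the retinal pigment epithelium (RPE) attached, wild type RPE-attached retina, young whole embryo and wild type whole embryo. Each pool held 10 embryos or dissected tissues, except for 9 in young retina replicate 2 and 6 in each young RPE-attached pool. Mutants were staged by their wild type siblings, and the mutation was present in the whole animal, so that eye and body were both mutant. The series asked which genes depend on Smarca4, the ATPase of SWI/SNF chromatin remodelling complexes, in the retina and RPE.

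Myb proteins bind DNA through Myb repeats. Mybl2 (B-Myb) works with the MuvB complex and then FoxM1 to switch on genes of late S phase and mitosis in dividing cells, and Mybl1 (A-Myb) is best known in mouse as a regulator of meiotic genes in the testis. Myc proteins bind E-box DNA as dimers with Max and promote growth through ribosome assembly, nucleotide synthesis and glycolysis. Zebrafish have paired copies of c-myc (myca and mycb) and of L-myc (mycla and myclb), and a mycn gene. Retinal progenitors divide before they differentiate, and in fish a dividing ciliary margin persists at the edge of the mature retina.

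Values are log2 signals on the authors' robust multiarray average (RMA) scale, where 1 unit is a doubling. A difference is a log2 difference ± SE from a limma fit over all 18 arrays, with n = 3 arrays per group. Its SE is a spread shared by all groups, and the fit has no term for replicate number. A gene is called at a limma adjusted p under 0.05 (Benjamini-Hochberg over all probe sets), and p-values measure only the spread between pools.

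The brighter probe set of smarca4a, the gene mutated in young, averaged 8.89 ± 0.20 in young retina and 11.15 ± 0.16 in wild type retina (SD, n = 3 each). The RPE-attached groups differed in more than genotype. Array hybridization controls averaged 11.33 ± 0.12 in young RPE-attached retina and 9.66 ± 0.09 in its wild type counterpart. The remaining groups averaged 9.77 to 9.97, with an SD of 0.51 to 0.57. Added poly-A controls averaged 4.70 ± 0.15 in young and 5.78 ± 0.05 in wild type RPE-attached retina. The median SD per gene was 0.171 in young RPE-attached retina, and elsewhere it was 0.108 to 0.129. Pool size, these control signals and genotype cannot be told apart in the RPE-attached comparison, so RPE-attached values are read beside those of retina and whole embryos.

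mybl1 was higher in young than in wild type in all 3 tissues, by a similar log2 amount. In young retina its log2 signal was 11.83, 11.69 and 11.74, against 10.08, 10.07 and 9.87 in wild type retina. In RPE-attached retina it was 11.58, 11.40 and 11.39 in young, against 9.26, 9.60 and 9.37 in wild type. In whole embryos it was 9.62, 9.26 and 9.63 in young, against 7.86, 7.92 and 7.56 in wild type. Every young array lay above every wild type array of its tissue. The differences were 1.75 ± 0.12 in retina (3.35-fold higher), 2.05 ± 0.12 with RPE attached (4.13-fold) and 1.72 ± 0.12 in whole embryos (3.30-fold). Among all 15502 differences, counted from the largest increase, mybl1 stood at place 17 in retina, 20 with RPE attached and 6 in whole embryos. The retina difference exceeded the whole embryo difference by 0.02 ± 0.18, and the RPE-attached difference exceeded the retina difference by 0.30 ± 0.18.

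**Figure D1:**
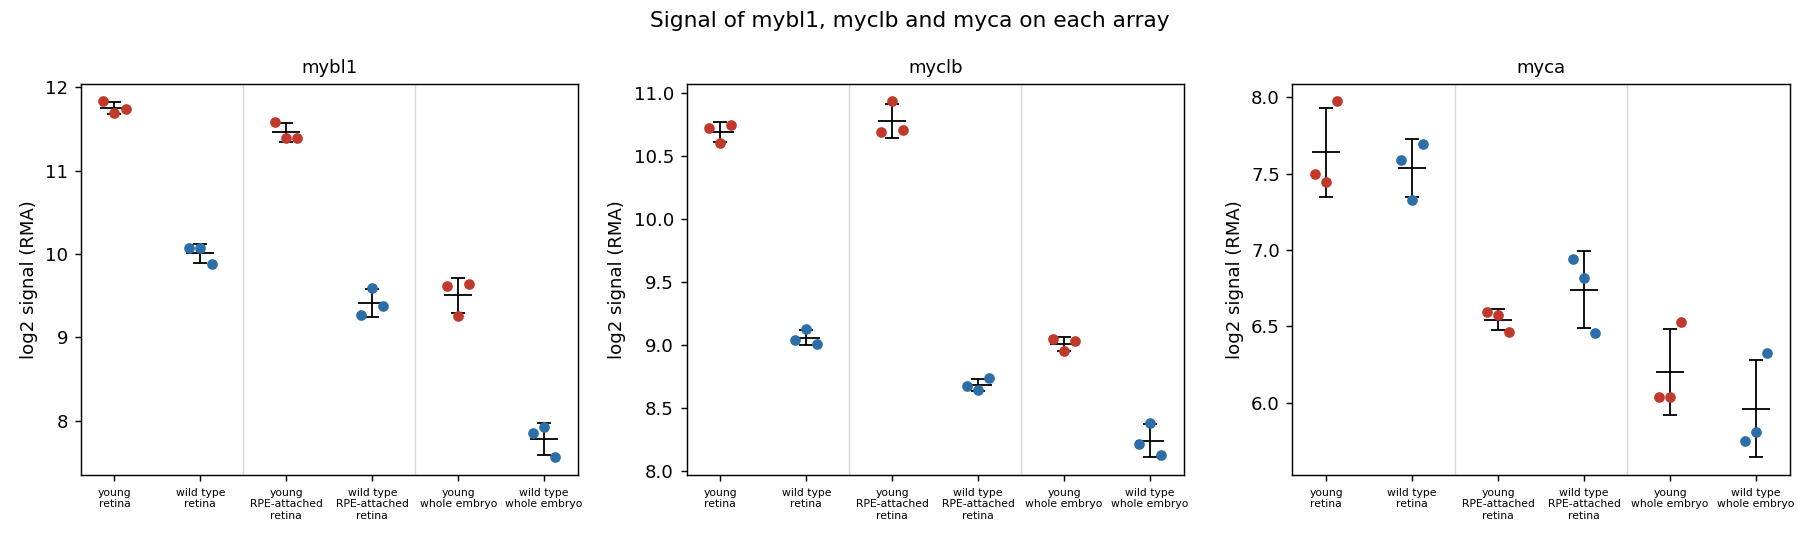
Log2 signal (RMA) of mybl1, myclb and myca on each array, grouped by tissue with young (red) left of wild type (blue). Points are the 3 arrays of a group, the horizontal bar is the mean and the whiskers are 1 SD. The young points of mybl1 and myclb lie above the wild type points in each tissue, while those of myca overlap them.

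myclb, an L-myc copy, was also higher in young in all 3 tissues, with the smallest difference in whole embryos. In young retina it measured 10.72, 10.60 and 10.75, against 9.04, 9.13 and 9.01 in wild type retina. In RPE-attached retina it measured 10.70, 10.94 and 10.71 in young, against 8.68, 8.64 and 8.74 in wild type. In whole embryos it measured 9.05, 8.95 and 9.03 in young, against 8.21, 8.38 and 8.12 in wild type. No young array overlapped the wild type arrays of its tissue. The difference was 1.63 ± 0.10 in retina (3.10-fold higher), 2.10 ± 0.10 with RPE attached (4.28-fold) and 0.77 ± 0.10 in whole embryos (1.71-fold). myclb stood at place 24 in retina, 17 with RPE attached and 131 in whole embryos. Its retina difference was larger than its whole embryo difference by 0.86 ± 0.14, and its RPE-attached difference was larger than its retina difference by 0.46 ± 0.14.

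myca, a c-myc copy, had young and wild type arrays whose ranges overlapped in each tissue. In young retina it measured 7.50, 7.45 and 7.97, against 7.59, 7.33 and 7.70 in wild type retina. In RPE-attached retina it measured 6.59, 6.57 and 6.46 in young, against 6.94, 6.82 and 6.46 in wild type. In whole embryos it measured 6.03, 6.04 and 6.53 in young, against 5.75, 5.81 and 6.33 in wild type. Between arrays of the same replicate number, young was higher in every whole embryo pair, and retina pairs went both ways. The SEs that follow leave that pairing out. The differences were 0.10 ± 0.18, -0.20 ± 0.18 and 0.24 ± 0.18 in retina, RPE-attached retina and whole embryos. Thus 2 of the 3 genes had every young array above every wild type array in each tissue. Of all 8793 genes, 19.3% did so in retina, 30.8% in RPE-attached retina, 10.6% in whole embryos and 3.72% in all 3 tissues. The rule used these contrasts, so nothing is read from the count.

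The order of the group means differed between the genes. For mybl1 it ran from young retina (11.75 ± 0.07, SD) through young RPE-attached retina (11.46 ± 0.11), wild type retina (10.01 ± 0.12), young whole embryo (9.50 ± 0.21) and wild type RPE-attached retina (9.41 ± 0.17) to wild type whole embryo (7.78 ± 0.19), with n = 3 each. Young embryo and wild type RPE-attached retina overlapped in that order, and the other neighbours did not. For myclb, young RPE-attached retina (10.78 ± 0.13) and young retina (10.69 ± 0.08) overlapped at the top. Wild type retina (9.06 ± 0.06) and young embryo (9.01 ± 0.05) overlapped below them, above wild type RPE-attached retina (8.68 ± 0.05) and wild type embryo (8.24 ± 0.13). The order of myca followed tissue: both retina groups (young 7.64 ± 0.29, wild type 7.54 ± 0.19) lay above both RPE-attached groups (young 6.54 ± 0.07, wild type 6.74 ± 0.25), and the whole embryo groups were lowest (young 6.20 ± 0.28, wild type 5.96 ± 0.32). The RPE-attached range of myca overlapped that of young embryos.

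Retinal progenitor markers went in both directions, while their summed signal, which the brightest genes carry, was higher on the young arrays. The 31 measured genes had a summed log2 signal of 15.54 to 15.61 in young retina and 15.10 to 15.16 in wild type retina. In RPE-attached retina the sum was 15.45 to 15.53 in young and 14.94 to 15.06 in wild type, and in whole embryos 14.27 to 14.43 in young and 14.08 to 14.11 in wild type. Of these genes, 11 rose and 7 fell in young retina, where 10.1% of all genes rose and 9.50% fell, and their median difference was 0.11 against 0.04 over all genes. In RPE-attached retina 12 rose and 10 fell (28.2% and 21.3% of all genes, medians 0.10 and 0.06), and in whole embryos 6 rose and 4 fell (3.73% and 3.66%, medians 0.04 and -0.00). The embryo count of risen genes was 3 without wild type embryo replicate 2 or young embryo replicate 3, and that of fallen genes ran from 0 to 4 as single arrays were left out. ascl1a, a proneural factor, rose in young by 1.65 in retina (limma adjusted p = 3.9e-08), 1.90 with RPE attached and 1.29 in whole embryos. hmx4, a homeobox factor of the eye, fell by 0.94 in retina (2.5e-04) and by 2.10 with RPE attached (6.5e-09) and differed by -0.20 in whole embryos (0.686). six3a, an eye field factor, fell by 0.45, 0.33 and 0.38 in the same order. In bulk RNA, more cells of a type and more RNA per cell cannot be told apart, and the part of progenitor content in the mybl1 and myclb values was not tested.

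Markers of other tissues that a dissection can carry were measured on the same arrays. The 8 lens genes summed to 10.67, 10.81 and 8.89 in young retina replicates 1 to 3 and to 8.48 to 8.57 in wild type retina. Young retina replicate 3, the lowest of the 3 in lens signal, had 11.74 for mybl1 and 10.75 for myclb. The part of lens, pigment and blood RNA in the mybl1 and myclb values was not tested. Lens genes counted 3 higher and 0 lower in retina, 0 and 0 in RPE-attached retina, and 0 and 1 in whole embryos. The 13 RPE and pigment cell genes summed to 12.52 to 12.65 in young and 11.92 to 12.23 in wild type RPE-attached retina, with 7 higher and 1 lower there, 1 and 1 in retina, and 0 and 1 in whole embryos. Of 24 blood genes, 2 rose and 0 fell in retina, 9 rose and 2 fell in RPE-attached retina, and 7 rose and 0 fell in whole embryos, where their sum was 14.56 to 14.75 in young and 14.56 to 14.64 in wild type. For blood genes the shares that rose were 8.33%, 37.5% and 29.2% in retina, RPE-attached retina and embryos, for lens genes 37.5%, 0% and 0%, and for pigment genes 7.69%, 53.8% and 0%, where 10.1%, 28.2% and 3.73% of all genes rose. The shares that fell were 0%, 8.33% and 0% for blood genes and 0%, 0% and 12.5% for lens genes. For pigment genes 7.69% fell in each tissue, where 9.50%, 21.3% and 3.66% of all genes fell.

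Within wild type fish, all 3 genes were higher in retina than in whole embryos. This tissue contrast holds no mutant array, but its arrays also stand in the genotype contrasts that were known when the genes were chosen, so it is given as a description. mybl1 differed by 2.23 ± 0.12 (4.68-fold higher), myca by 1.58 ± 0.18 (2.98-fold) and myclb by 0.82 ± 0.10 (1.77-fold). The arrays did not overlap for any of them, and 51.6% of all genes likewise had every retina array above every embryo array. The median over all genes was 0.26. With array medians subtracted, the median over all probe sets in this contrast moved to 0.36, against 0.24 as deposited.

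In wild type RPE-attached retina all 3 genes were lower than in retina, again without overlap of arrays. mybl1 differed by -0.60 ± 0.12 (1.51-fold lower), myca by -0.80 ± 0.18 (1.74-fold lower) and myclb by -0.37 ± 0.10 (1.30-fold lower). Of all genes, 23.0% had every RPE-attached array below every retina array. Poly-A controls averaged 5.78 in wild type RPE-attached retina and 5.04 in wild type retina. Their part in the wild type RPE-attached differences was not tested. With array medians subtracted, 36.1% of the probe sets called in this contrast were higher, against 52.1% as deposited.

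The other Myb genes pointed the same way or were not called. mybl2b, a B-Myb copy, measured 9.77, 9.95 and 9.73 in young retina, against 9.20, 8.94 and 8.78 in wild type retina. It rose in young by 0.84 ± 0.16 in retina (limma adjusted p = 4.5e-04), by 1.02 ± 0.16 in RPE-attached retina (adjusted p = 2.5e-05) and by 0.56 ± 0.16 in whole embryos (adjusted p = 0.0320). Every young array lay above every wild type array in all 3 tissues, as for 3.72% of all genes. The embryo call of mybl2b was lost without any of 5 of the 6 embryo arrays (limma adjusted p of 0.0612 to 0.136). mybl2a, another B-Myb copy, rose in retina (0.43 ± 0.12, adjusted p = 0.0155), a call lost without young retina replicate 3 (0.0615) or wild type retina replicate 1 (0.0558). Its differences were 0.22 in RPE-attached retina and 0.07 in whole embryos, not called. myb, the c-Myb gene of blood progenitors, differed by 0.26, 0.28 and 0.14 in the 3 tissues. It was called in RPE-attached retina (limma adjusted p = 0.0421), a call lost in 5 of the fits that left out an array. That call was also lost with trended moderation (0.0533), array weights (0.0838) and only the groups compared (0.111). With replicate number as a block, myb was called in retina (limma adjusted p = 0.0290).

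**Figure D2:**
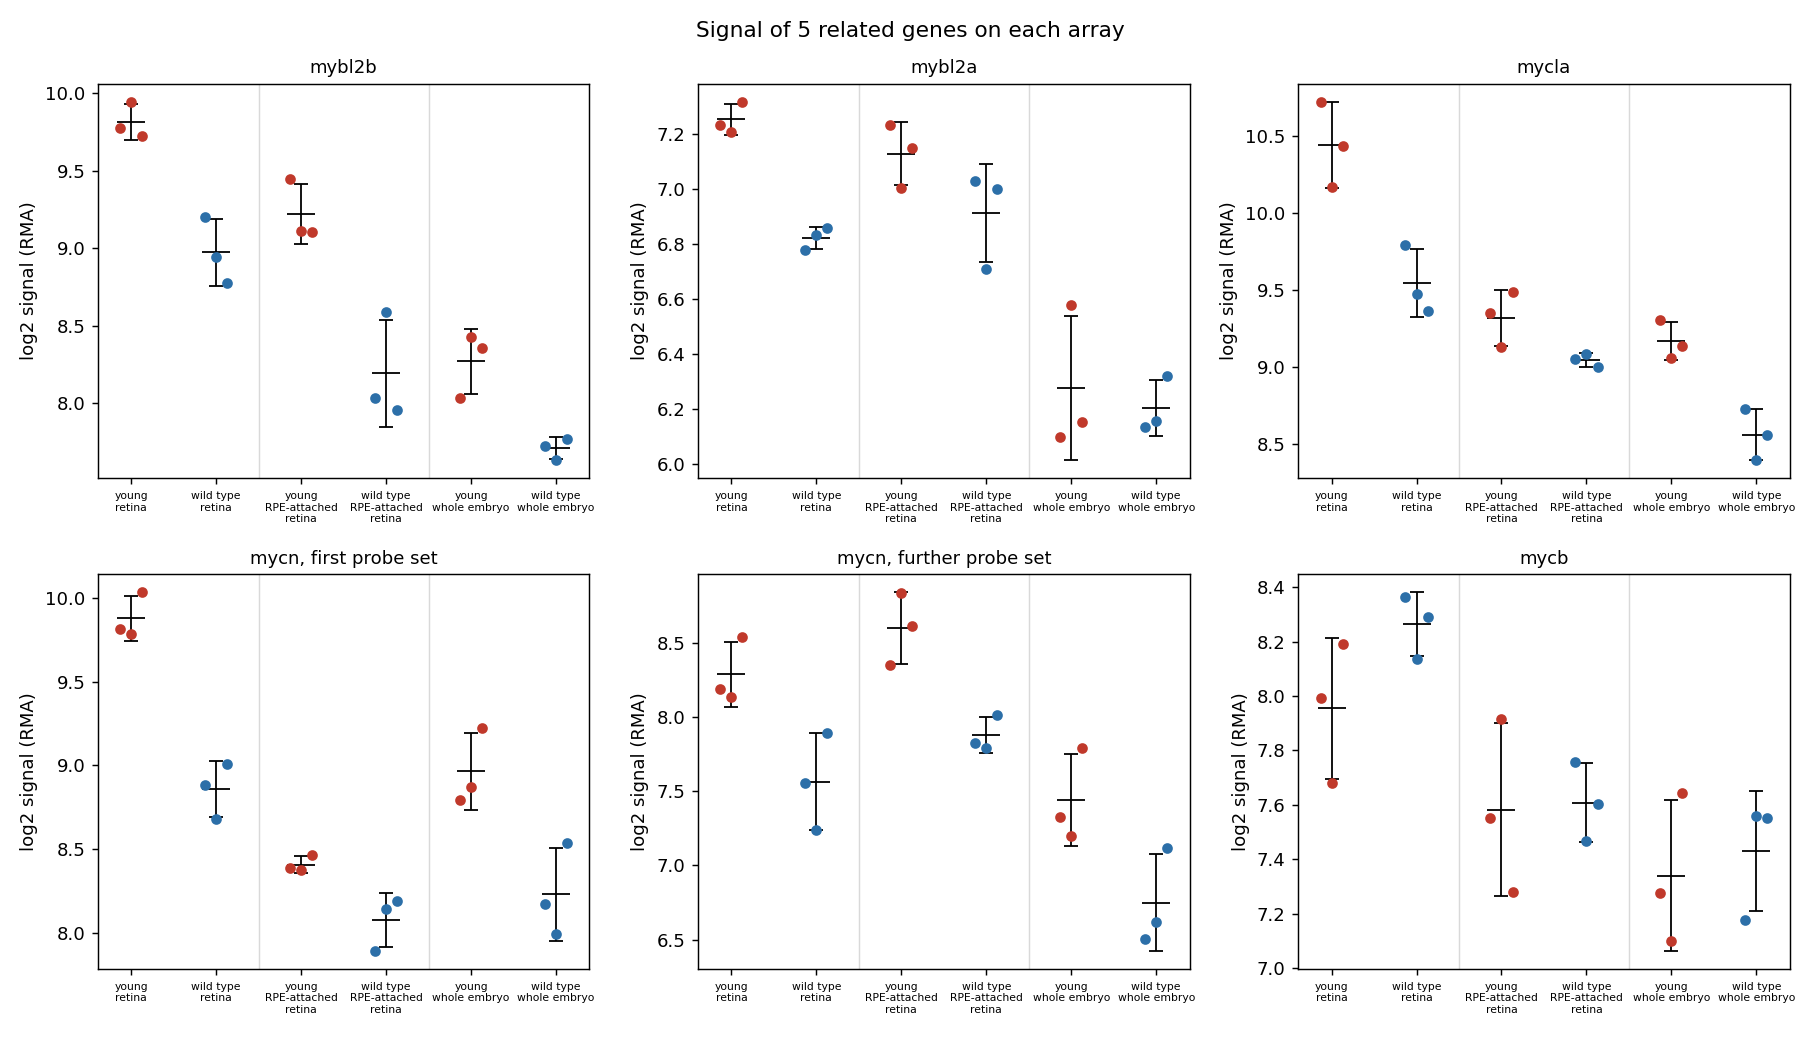
Log2 signal (RMA) of mybl2b, mybl2a, mycla, mycb and the 2 probe sets of mycn on each array, with young (red) left of wild type (blue) in each tissue. Points are arrays, bars are means and whiskers are 1 SD (n = 3). The young points of mybl2b, of mycla and of both mycn probe sets lie above the wild type points in every tissue, and those of mycb overlap them.

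Among Myc genes, mycla and mycn rose in young retina, and mycb did not differ beyond its spread. mycla, the other L-myc copy, measured 10.72, 10.17 and 10.43 in young retina, against 9.79, 9.47 and 9.37 in wild type retina. It rose by 0.90 ± 0.14 in retina (limma adjusted p = 7.8e-05) and by 0.61 ± 0.14 in whole embryos (adjusted p = 0.0097). In RPE-attached retina it differed by 0.28 ± 0.14 (adjusted p = 0.116). The embryo call was lost without wild type embryo replicate 2 (0.0596) or young embryo replicate 1 (0.0526). The 2 probe sets of mycn, a gene of neural progenitors, both rose in retina (1.02 ± 0.14, adjusted p = 1.8e-05, and 0.73 ± 0.19, adjusted p = 0.0087) and in whole embryos (0.73 ± 0.14, adjusted p = 0.0023, and 0.69 ± 0.19, adjusted p = 0.0295). In RPE-attached retina both were higher in young, the brighter by 0.33 ± 0.14 (adjusted p = 0.0592) and the other by 0.72 ± 0.19 (adjusted p = 0.0039). The brighter was called with array medians subtracted (0.0410), with only the groups compared (0.0491), with a replicate block over all arrays (0.0125) and without any of 3 embryo arrays (0.0375 to 0.0483).

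mycb, the other c-myc copy, measured 7.99, 7.68 and 8.19 in young retina, against 8.37, 8.14 and 8.29 in wild type retina, and these overlap. Its differences were -0.31 ± 0.17, -0.03 ± 0.17 and -0.09 ± 0.17 in retina, RPE-attached retina and whole embryos (adjusted p of 0.262, 0.915 and 0.938). mych, a further zebrafish Myc gene, differed by 0.21, 0.09 and -0.00, none called, at signals of 5.71 to 6.31. Of the 10 related genes, 4 rose in retina (mybl2a, mybl2b, mycla and mycn), 3 with RPE attached (myb, mybl2b and mycbp2) and 3 in whole embryos (mybl2b, mycla and mycn), with 0 called lower in any. Over all genes 10.1%, 28.2% and 3.73% were called higher, so the 3 of 10 in RPE-attached retina lie near the background. That count takes the brightest probe set of mybbp1a, a nucleolar Myb-binding protein, which differed by -0.15 there (limma adjusted p = 0.443), while its other 3 probe sets rose by 1.35 (1.1e-04), 1.15 (3.2e-04) and 0.37 (0.0093). None of the 4 was called in retina or whole embryos. At an unadjusted p under 0.05 the related genes called higher numbered 6 in retina, 4 with RPE attached and 3 in whole embryos, and those lower 0 in each. The share of all genes at that threshold was not counted, so nothing is read from these numbers. With replicate number as a block, myb and mycbp, a Myc-binding protein (adjusted p = 0.0452), were called in retina as well.

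**Figure D3:**
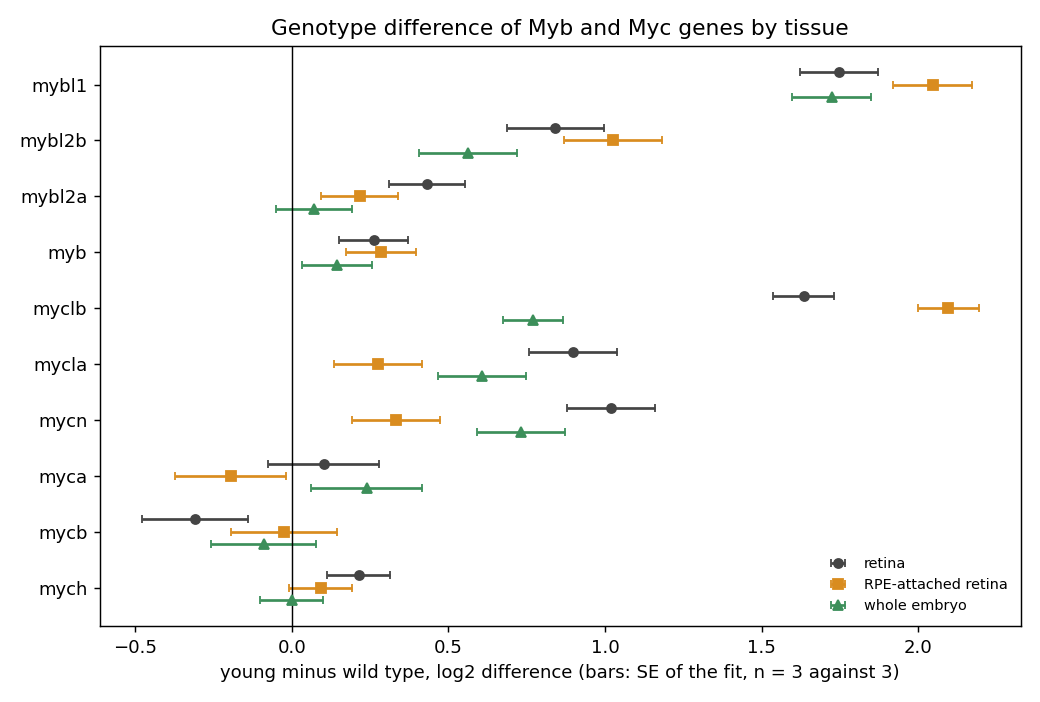
Log2 difference, young minus wild type, of 10 Myb and Myc transcription factor genes in retina (dark circles), RPE-attached retina (orange squares) and whole embryo (green triangles). Bars are the SE of the fit (n = 3 against 3 arrays). For mycn only the brighter probe set is drawn, with 0.33 in RPE-attached retina, where its other probe set differed by 0.72. mybl1 lies between 1.72 and 2.05 in the 3 tissues, myclb between 0.77 and 2.10, and myca between -0.20 and 0.24.

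The genotype effect was called different between retina and whole embryos for 0 of the 10 related genes by limma (0 also at an unadjusted p under 0.05), where 2.80% of all genes were called higher in retina and 4.42% lower. Shares of all genes at the unadjusted threshold were not counted, so nothing is read from the count there. Between RPE-attached retina and retina it was larger for 1 (mycbp2) and smaller for 2 (mycla and the brighter probe set of mycn), against 12.5% and 9.34% of all genes.

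In wild type fish 7 of the 10 related genes were higher in retina than in whole embryos and 0 were lower, where 46.2% of all genes were higher and 22.4% lower. In RPE-attached retina 5 (mybl2b, mycb, mycbp2, mycla and mycn) were lower than in retina and 0 were higher, where 15.5% of all genes were lower and 15.4% higher. For mycn that count takes the brighter probe set, which averaged 8.08 in wild type RPE-attached retina and 8.86 in wild type retina. The other mycn probe set went the opposite way, with 7.88 and 7.56. mybl2b was higher in wild type retina than in embryos by 1.27 ± 0.16, mycla by 0.98 ± 0.14 and mycb by 0.83 ± 0.17.

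The patterns over the 18 arrays were compared by Pearson correlation among 6471 probe sets, as a description, since arrays of a group share genotype and tissue. Those most like mybl1 were btg3 (0.976), an antiproliferative BTG family gene, ascl1a (0.974), rtca (0.972), an RNA cyclase, hes6 (0.969), a proneural Hes family factor, and ccnd1 (0.965), the G1 cyclin. Those most like myclb were si:ch211-117c9.5 (0.973), ada2a (0.971), an adenosine deaminase, cdc25b (0.968), the phosphatase that drives entry into mitosis, aars1 (0.964), an alanyl-tRNA synthetase, and palb2 (0.961), a DNA repair partner of Brca2. Those most like myca were gid8a (0.969), a ubiquitin ligase subunit, lin7c (0.957), a cell polarity scaffold, nol9 (0.952), a nucleolar kinase, psme3 (0.938), a proteasome activator, and rangap1b (0.935), of nuclear transport. mybl1 and myclb correlated with each other at 0.951, mybl1 with mybl2b at 0.930, and myca with mycb at 0.852, but mybl1 with myca at 0.614. The members were chosen with their genotype differences known, and these correlations include those differences. Nothing is therefore read from the correlations between members.

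Some of the genes with which Myb proteins work rose in the eye samples. Of 18 measured Myb and MuvB partners, 6 rose and 0 fell in young retina (median 0.29), 12 rose and 1 fell in RPE-attached retina (median 0.62), and 1 rose and 0 fell in whole embryos (median 0.11). The shares that rose were 33.3%, 66.7% and 5.56%, beside 10.1%, 28.2% and 3.73% of all genes, and the embryo share is near that background. With replicate number as a block, the retina count was 14 and the embryo count 4. The block also raised calls over all 15502 probe sets, from 2834 to 4807 in retina and 1044 to 2525 in whole embryos. List counts with the block, here and below, have no share of all genes beside them, so nothing is read from them. foxm1, the factor that acts after B-Myb in mitotic transcription, rose by 0.93 in retina (limma adjusted p = 1.7e-06) and 1.22 in RPE-attached retina, and differed by 0.33 in whole embryos (adjusted p = 0.0743). ccnd1 rose by 1.07 in retina (2.6e-05), 1.53 with RPE attached and 0.83 in whole embryos. It is the only gene of this list called in whole embryos in the main fit, which leaves the block out, and the retinal progenitor list holds it too. e2f4, a partner of the repressive form of the complex, rose by 0.93 and 1.67 in retina and RPE-attached retina and differed by 0.35 in whole embryos (0.204). lin52, a MuvB core subunit, rose by 0.43 in retina and differed by -0.11 with RPE attached. The retina count ran from 3 to 8 when an array was left out, and was 3 without young retina replicate 3. In whole embryos the counts of this list stayed at 1 higher and 0 lower as single arrays were left out. Embryo counts of 1 or 2 genes in several of the following lists lost or gained calls in such fits.

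Many late cell cycle genes that B-Myb and FoxM1 are known to activate rose in the eye samples. Of 43 measured, 32 rose in retina (median 0.52), 26 with RPE attached (median 0.43) and 2 in whole embryos (median 0.06), with 0 lower in each. These are 74.4%, 60.5% and 4.65% of the list, beside 10.1%, 28.2% and 3.73% of all genes. The embryo share is near that background. With the block 6 rose and 1 fell in whole embryos, and at an unadjusted p under 0.05 0 fell in either eye sample. The share of all genes at that unadjusted threshold was not counted, so nothing is read from it. ckap2l, a spindle protein, rose by 1.03 in retina (limma adjusted p = 1.8e-06) and 0.52 in whole embryos. cdc25b rose by 1.39, 2.00 and 0.90 in retina, RPE-attached retina and whole embryos. nuf2, a kinetochore subunit, rose by 0.91 in retina and differed by 0.06 with RPE attached and 0.12 in whole embryos. Its complex partner ndc80 rose by 0.81 in retina and 1.42 with RPE attached, and differed by 0.21 in whole embryos (0.499). The difference between the retina and embryo effects was itself called higher for 6 of the 43 genes (2.80% of all genes). Of 19 germ line genes that A-Myb binds in mouse, 1 rose and 1 fell in retina, 1 rose and 2 fell in RPE-attached retina, and 0 were called in whole embryos (limma, 0 also at an unadjusted p under 0.05). Of all genes, 10.1% rose and 9.50% fell in retina, 28.2% and 21.3% in RPE-attached retina, and 3.73% and 3.66% in embryos. The germ line shares lay under these, so nothing particular to the list is read from the counts. Of the germ line genes 3 rose in RPE-attached retina when any of the 3 young RPE-attached arrays was left out. tdrkh, of the piRNA pathway, fell by 0.50 in retina and 0.74 with RPE attached. The other genes called lay near or under a log2 signal of 5.15, the 30th percentile of group means, where background limits a difference. They were sycp3 in retina (5.31 in young, 4.65 in wild type), and rnf17 (5.43 in young, 4.96 in wild type) and syce2 (4.82 in young, 5.48 in wild type) in RPE-attached retina.

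**Figure D4:**
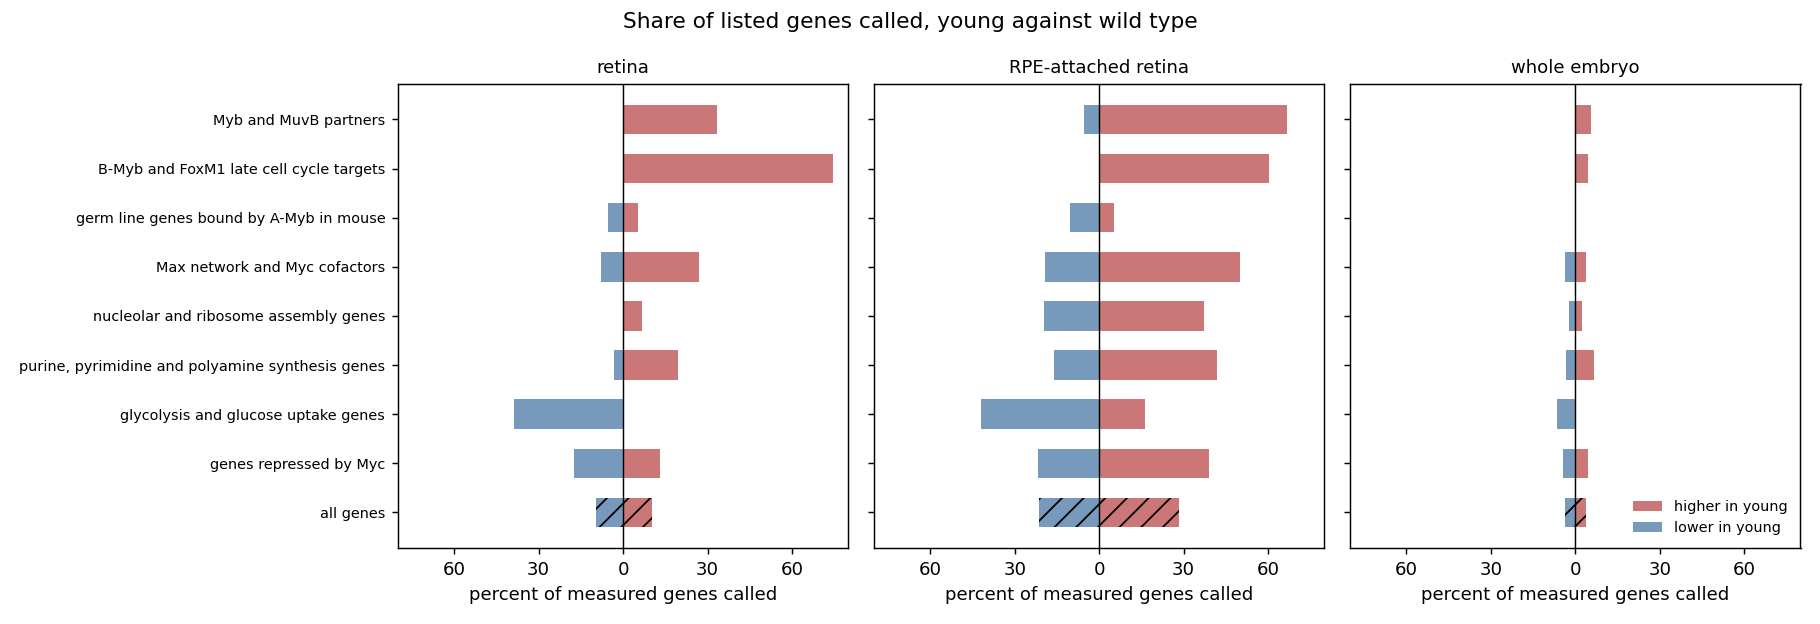
Percent of the measured genes of 8 lists called higher (red, right) or lower (blue, left) in young than in wild type at an adjusted p under 0.05, in retina, RPE-attached retina and whole embryo. The hatched bars give the same for all 8793 genes. The late cell cycle list has 32 of 43 genes higher in retina, and the glycolysis list has 12 of 31 lower.

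Genes of the Max network were called in both directions. Of 26 measured Max partners and Myc cofactors, 7 rose and 2 fell in retina (median 0.21), 13 rose and 5 fell in RPE-attached retina (median 0.29), and 1 rose and 1 fell in whole embryos (median 0.04). The shares that rose in retina and RPE-attached retina were 26.9% and 50.0%, beside 10.1% and 28.2% of all genes. Those that fell, 7.69% and 19.2%, lie near the 9.50% and 21.3% of all genes. In whole embryos 3.85% rose and 3.85% fell, near the 3.73% and 3.66% of all genes. With the block 12 rose in retina and 5 in whole embryos. The retina count of risen genes was 4 without young retina replicate 1 or wild type retina replicate 3, and 3 without wild type retina replicate 2, and that of fallen genes was 0 or 1 without any of the 6 retina arrays. pim1, a kinase that cooperates with Myc in lymphoma, rose by 0.98 in retina (limma adjusted p = 2.3e-07), 1.23 with RPE attached and 0.34 in whole embryos (0.0413). max, the shared dimer partner, fell by 0.39 in retina (0.0162), was higher by 0.34 in RPE-attached retina (0.0163) and differed by -0.06 in whole embryos (0.937). skp2, a ubiquitin ligase subunit and Myc cofactor, rose by 0.57 in retina.

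Of 91 nucleolar and ribosome assembly genes, a class that Myc is known to activate, 6 rose and 0 fell in retina (median 0.12), 34 rose and 18 fell in RPE-attached retina (median 0.12), and 2 rose and 2 fell in whole embryos (median 0.02). The shares were 6.59% higher in retina (10.1% of all genes) and 37.4% higher and 19.8% lower in RPE-attached retina (28.2% and 21.3%). The share that fell in retina was 0%, beside 9.50% of all genes. In whole embryos both shares lay under the 3.73% and 3.66% of all genes. Nothing particular to the list is therefore read from the retina and embryo counts. With the block 19 rose and 4 fell in retina and 6 rose in whole embryos, while 3 rose in retina without young retina replicate 2 or 3 or wild type retina replicate 1. nob1, which trims the small subunit RNA, rose by 0.61 in retina, and rrs1, a large subunit assembly factor, by 0.45. In RPE-attached retina nol6 rose by 1.25, with differences of 0.22 in retina and 0.34 in whole embryos that were not called, and npm1a, a nucleophosmin, rose by 0.94, with 0.16 and -0.01, not called. ncl and fbl, the nucleolar proteins nucleolin and fibrillarin, differed by 0.14 and -0.01 in retina (adjusted p of 0.302 and 0.971).

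Of 31 purine, pyrimidine and polyamine synthesis genes, 6 rose and 1 fell in retina (median 0.01), 13 rose and 5 fell in RPE-attached retina (median 0.22), and 2 rose and 1 fell in whole embryos (median 0.09). The shares that rose were 19.4%, 41.9% and 6.45%, beside 10.1%, 28.2% and 3.73% of all genes. Those that fell were 3.23%, 16.1% and 3.23%, beside 9.50%, 21.3% and 3.66%. With the block 7 rose and 3 fell in whole embryos. uck2b, a uridine-cytidine kinase, rose by 0.73 in retina (limma adjusted p = 9.2e-06) and 1.43 in RPE-attached retina and differed by 0.27 in whole embryos, and paics, a purine synthesis enzyme, rose by 0.94 in whole embryos and differed by -0.38 in retina (0.0587). odc1, the polyamine enzyme and classic Myc target, differed by -0.18 in retina (0.423), -0.07 with RPE attached and -0.10 in whole embryos, none called.

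Most of the glycolysis genes that were called fell. Of 31 measured, 0 rose and 12 fell in retina (median -0.20), 5 rose and 13 fell in RPE-attached retina (median -0.24), and 0 rose and 2 fell in whole embryos (median -0.02). The shares that fell were 38.7%, 41.9% and 6.45%, beside 9.50%, 21.3% and 3.66% of all genes. Those that rose were 0%, 16.1% and 0%, beside 10.1%, 28.2% and 3.73%. With the block 2 rose and 4 fell in whole embryos, and without any of the 3 wild type RPE-attached arrays the risen genes in RPE-attached retina numbered 3. hk1, the hexokinase of neurons, fell by 1.34 on the log2 scale in retina (limma adjusted p = 7.2e-09) and by 0.63 in whole embryos. pfkpa, a phosphofructokinase, fell by 1.15 and 0.70 in the same tissues, and gapdhs fell by 1.05 in retina. ldha, a lactate dehydrogenase and Myc target, differed by 0.11 in retina (0.726), -0.16 with RPE attached and 0.09 in whole embryos.

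Genes that Myc is known to repress were called in both directions. Of 23 measured, 3 rose and 4 fell in retina (median -0.07), 9 rose and 5 fell in RPE-attached retina (median 0.25), and 1 rose and 1 fell in whole embryos (median -0.03). The share that fell was 17.4% in retina (9.50% of all genes). In RPE-attached retina 39.1% rose and 21.7% fell (28.2% and 21.3% of all genes), so the share that fell there is near the background. The share that rose in retina lay near the 10.1% of all genes. In whole embryos both shares lay near the 3.73% and 3.66% of all genes. Nothing particular to the list is read from the counts near the background. With the block 6 rose in retina, and 2 rose and 3 fell in whole embryos. ndrg1a, a stress-response gene of the N-myc downstream family, fell by 2.14 in retina (limma adjusted p = 1.8e-08), and ndrg4, of neurons, fell by 1.40. cdkn1ca, a cell cycle inhibitor, rose by 1.33 in retina and 1.35 in RPE-attached retina and differed by 0.52 in whole embryos (0.126), and btg2, an antiproliferative gene, rose by 0.84, 1.01 and 0.74 in retina, RPE-attached retina and whole embryos.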

How the data were processed

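RNA from 18 pools was labelled by the Affymetrix two-cycle protocol, hybridized to Affymetrix zebrafish arrays, and summarised by the authors as log2 signals by RMA, per the labels and the series design. The submitters' processing notes name RMA, affy and R 2.2.0, without a version for affy. RMA forces similar distributions on all arrays, so values are relative to each array's other probe sets. The table held 15617 probe sets, and 115 controls were left out of tests. Of the 15502 tested, 10795 had 1 gene symbol, 135 several and 4572 none. The gene table (assembly GRCz12tu) updated 1 symbol, and 84 identifiers were not in it. A gene was represented by its brightest probe set.

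Groups were compared in limma 3.58.1 (R 4.3.3), with a mean per group and empirical Bayes moderation, tested on simulated data. Figures used Python 3.11.15 and matplotlib 3.10.9. The members and gene lists were chosen with earlier results of these data known. The 12 lists (Myb and MuvB partners, late cell cycle targets, germ line genes, Max network, nucleolar, nucleotide and polyamine, glycolysis, Myc-repressed, retinal progenitor, blood, lens, and RPE and pigment genes) name 548 genes, counting repeats, and the array measured 358. Named were the members, all related genes, up to 4 called genes of a list with the smallest p in each genotype contrast, and the 5 genes most like each member among probe sets whose group means had an SD of at least 0.3. Outside that rule, ncl, fbl, odc1 and ldha, and values of named genes in tissues where they were not called, were given after their values were seen. No scan date is given in the labels. The number of arrays limits precision.

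Same-numbered embryo and retina arrays deviated together (correlations across genes of 0.29 to 0.60 in 18 pairs), so the replicate number counts as pairing there. The main fit leaves this pairing out of its SEs and p-values, and the replicate block over those arrays puts it in. In pairs with RPE-attached groups the correlations ran from -0.20 to 0.16, with no pairing. The labels do not say what a number shares. The wild type tissue differences of the members, planned as tests, are given as a description. Alternatives are given in the closing section.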

Additional observations from a re-analysis of the deposited data

Results flagged for a closer look

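Among the related genes, 5 probe sets had a genotype effect that differed between RPE-attached retina and retina by the limma interaction. For mycbp2, a ubiquitin ligase that binds Myc, the effect in RPE-attached retina minus that in retina was 0.89 (adjusted p = 4.6e-04). For mybbp1a it was 1.38 (0.0068) and 1.18 (0.0132) on 2 of its 4 probe sets, while the brightest was not called. For the brighter mycn probe set it was -0.69 (0.0207), with calls lost in 3 fits that left out an array, and -0.00 (0.995) for the other. For mycla it was -0.62 (0.0328), with the call lost in 7 such fits (0.0553 to 0.0948). This contrast was called in 12.5% of all genes upward and 9.34% downward. Hybridization controls and pool size moved with the same groups, and their part in these values was not tested.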

How the results depend on the processing

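The young minus wild type difference of mybl1 ran from 1.68 to 1.78 in retina, 1.97 to 2.14 in RPE-attached retina and 1.61 to 1.85 in whole embryos over all alternatives, that of myclb from 1.60 to 1.68, 2.02 to 2.14 and 0.71 to 0.84, and that of myca from -0.06 to 0.20, -0.34 to -0.09 and 0.08 to 0.42. The alternatives were quantile normalization again, array medians subtracted, a filter on signals under 5.15, 1 probe set per gene, array weights, trended or robust moderation, fits to only the groups compared or to the embryo and retina arrays, the 0.001 threshold, each array left out, and a replicate block. No called direction of a related gene, read from its brightest probe set, reversed. Directions of the list genes were not compared over the alternatives. In the fit, the wild type RPE-attached differences of mybl1 (-0.60), myca (-0.80) and myclb (-0.37) are a description. So is that of myclb after quantile normalization again (-0.23). Neither the 0.001 nor the 0.05 threshold is read as a test of these differences.

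Of 15502 probe sets, the main counts of calls were 2834, 7274 and 1044 for young against wild type in retina, RPE-attached retina and whole embryos, 9935 and 4533 for the wild type tissue contrasts, and 1067 and 3128 for the interactions. At the 0.001 threshold they were 1201, 3328, 260, 5683, 1128, 378 and 424. With 1 probe set per gene, where fewer were tested, they were 1754, 4389, 676, 6074, 2761, 651 and 1979. With the replicate block over the embryo and retina arrays (like the fit to those arrays and the left-out arrays for lists, added after the data were seen), the retina, embryo and first interaction counts were 4807, 2525 and 2314. Over all alternatives the wild type retina minus whole embryo difference ran from 2.12 to 2.34 for mybl1 and from 1.47 to 1.76 for myca. For myclb it ran from 0.72 to 0.94. Without each array in turn the counts ran from 2287 to 2986, 6226 to 7300, 733 to 1158, 8778 to 10293, 3071 to 4951, 873 to 1171 and 2302 to 3454. No member had another probe set to put in its place.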
